A study of Mus musculus with 8 samples.

Results

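The fatty acid oxidation and lipid droplet genes are 10 genes of the deposited expression table of mouse blastocysts, chosen by symbol from 22013 genes in all: Cpt1a, Cpt2, Acadm, Acadl, Acadvl, Hadha, Hadhb, Plin2, Plin3 and Pnpla2. Each symbol matched 1 row, and all 10 genes passed the filter on low counts that left 12366 genes for testing. The study compared 4 libraries of wild-type ICR embryos, kept with 50 nM of an agomir of miR-21-5p (a chemically modified double-stranded mimic of the microRNA), with 4 libraries of blank control embryos given vehicle and no oligonucleotide. Every library came from a pool of 5 embryos made by in vitro fertilisation, from females of 6 to 8 weeks and males of 8 to 10 weeks. The embryos were cultured in KSOM under 5% oxygen for about 75 h up to the blastocyst stage. No group received an unrelated oligonucleotide, so an effect of the miR-21-5p sequence and one of any oligonucleotide cannot be told apart. The libraries are called control 1 to 4 and agomir 1 to 4 by their replicate numbers.

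Preimplantation embryos carry triglyceride in lipid droplets inherited from the egg, and the fatty acids released from them can be burned in mitochondria. Long-chain fatty acids are joined to carnitine by Cpt1a at the outer mitochondrial membrane and returned to coenzyme A inside by Cpt2. An acyl-CoA dehydrogenase chosen by chain length then opens each round of beta-oxidation, and the trifunctional protein of Hadha and Hadhb completes it for long chains. The droplets are coated by perilipins such as Plin2 and Plin3, and the lipase encoded by Pnpla2 takes the first fatty acid off stored triglyceride.

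Polyadenylated RNA was sequenced, and total counts ran from 12246102 in control 1 to 23147449 in agomir 4. The cell types of the blastocyst were all detected: the 7 trophectoderm markers, 6 inner cell mass markers and 5 primitive endoderm markers were above 0 in every library. The libraries differed in these markers. Summed over the trophectoderm list, control 2 had 3530 CPM and agomir 3 had 7140 CPM, where the other libraries had 1840 to 2633 CPM. The keratin genes Krt8 and Krt18 made up 74.5% to 90.3% of these sums. The other 5 markers summed to 343 CPM in control 2, within the 261 to 446 CPM of the other controls, and to 695 CPM in agomir 3, the highest of the agomir libraries, where the rest had 437 to 611 CPM. CPM is the count scaled to a fixed library total after TMM adjustment. In the comparison of groups all 7 trophectoderm genes had a higher mean with the agomir, 4 of them at an unadjusted p under 0.05 (edgeR). Of the 6 inner cell mass genes 5 had a lower mean, 2 of them at that level. Over all genes tested, 2.64% were higher and 3.74% lower at that level. On both lists 0 genes passed an FDR of 0.05 and 0 had groups wholly apart. The inner cell mass list summed to 205 to 434 CPM in controls and 164 to 276 CPM with the agomir, and the primitive endoderm list to 131 to 187 CPM and 132 to 195 CPM. Markers of cumulus and granulosa cells, which surround the egg before culture, summed to 23.04 to 63.7 CPM in controls and 6.42 to 19.5 CPM in agomir libraries, most of it from Cyp11a1. Of this list 8 of 10 genes were too low to be tested, Cyp19a1 was at 0 in all 8 libraries, Ptx3 in 7 and Fshr in 5. The part of these differences in the results that follow was not tested, and in pooled embryos fewer cells of a type and less RNA per cell cannot be told apart.

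The sequence of the mimicked microRNA is shown because a site for it in a transcript is the route by which an agomir could act on one of the genes directly. The strand is encoded on mouse chromosome 11 (GRCm38.p6, chr11:86584120-86584141, minus strand, RefSeq) and pairs with targets through its seed, bases 2 to 8, in capitals here. Below it stand the matches to bases 2 to 7 of that seed found in the longest annotated 3' untranslated regions of the 10 genes (GENCODE M21), with the match, TAAGCT, in capitals and up to 10 bases on either side.
mmu-miR-21a-5p: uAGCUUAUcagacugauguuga
Acadm: ctcgtgtaacTAAGCTccaagcactg
Plin3: agtgatagtcTAAGCTacattagacc
Pnpla2: aggacacatgTAAGCTgctctgttct
The full 7-base match ATAAGCT was in 0 of the 10 regions, while 7.86% of the 12224 tested genes with a region to search held it. Plin3 alone had the 7-base form TAAGCTA, a 6-base match followed by A, which 7.6% of genes held. The 6-base match was in 3 of the 10 genes and in 26.1% of all genes. A match of these letters is a description and not a measured binding site.

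Measured per length, as the deposited FPKM (fragments scaled to length and to library total), the 10 genes spanned a wide range of levels in the blastocyst. Hadhb was the most abundant, with a mean over the 8 libraries of 259.6 FPKM and a lowest value of 149 FPKM. Acadm followed at 112 FPKM and Plin2 at 100.4 FPKM. Their ranges over the libraries, 93.1 to 143 FPKM and 77.7 to 139.8 FPKM, overlapped, though Acadm was the higher of the 2 in each library. Acadl had 46.2 FPKM and lay below both in each library, while its lowest value, 30.5 FPKM, was just under the highest of Plin3, 31.1 FPKM. Cpt2 at 19.0, Plin3 at 18.3, Hadha at 15.6 and Acadvl at 12.1 FPKM overlapped in range and cannot be ordered beyond their spread. Pnpla2 at 7.06 FPKM and Cpt1a at 6.40 FPKM were the lowest, with ranges that overlapped each other and that of Acadvl. Within each library, Cpt1a lay below Acadvl. Cpt1a and Pnpla2 encode the entry step of carnitine transport and the first lipase of the droplet.

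The comparison asked whether culture with the miR-21-5p mimic altered expression of these genes. In edgeR's quasi-likelihood test, with p-values of all 12366 genes adjusted together (Benjamini-Hochberg), 0 of the 10 genes passed an FDR of 0.05, and 0 genes passed in the whole table (0% called, smallest FDR 0.299). At an unadjusted p under 0.05 there was 1 gene of the 10, Cpt1a, against a background of 6.38% of all genes, and DESeq2, which called 35 genes or 0.244% in all, called 0 of the 10. Groups overlapped in CPM for all 10 genes, while 3.89% of all genes had groups wholly apart, 2.47% with the agomir lower and 1.42% with it higher. The fold change was above 0 for 6 genes and below 0 for 4 (below 0 for 7 without TMM scaling), and the median log2 fold change (agomir over blank control) was 0.068, beside 0.0048 over all genes tested. The sign of this median depended on the scaling of the libraries, being -0.061 without TMM scaling, where the median of all genes stood at -0.11.

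**Figure D1:**
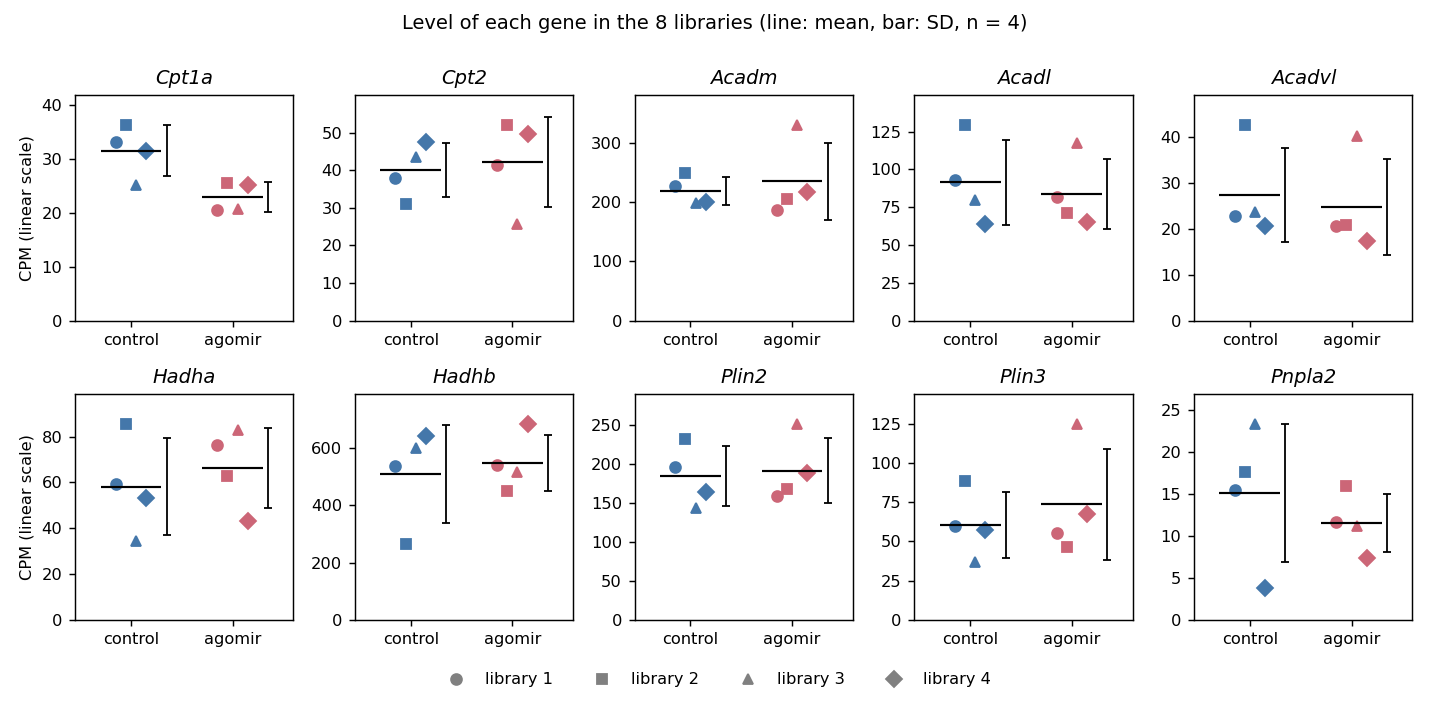
Level of each of the 10 genes (vertical axes, CPM on a linear scale from 0) in the control (blue) and agomir (red) libraries, with 1 symbol for each replicate number, the mean as a line and the SD as a bar (n = 4). The groups overlap for every gene, and control 2 and agomir 3 are the highest libraries of their groups for Acadm, Acadl, Acadvl, Hadha, Plin2 and Plin3.

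The carnitine palmitoyltransferases are the gate through which long-chain fatty acids enter the mitochondrial matrix. Cpt1a, the rate-limiting enzyme, had 33.2, 36.4, 25.1 and 31.4 CPM in controls 1 to 4 and 20.5, 25.5, 20.7 and 25.1 CPM in agomir libraries 1 to 4. All agomir libraries lay below controls 1, 2 and 4, and only control 3 fell among them. The means were 31.5 ± 4.75 CPM and 22.97 ± 2.72 CPM (SD, n = 4), a log2 fold change of -0.46 (SE 0.18, unadjusted p = 0.0276, edgeR adjusted p = 0.736). The fold change kept its sign under each of the 19 alternatives, from -0.57 to -0.33, and its unadjusted p was under 0.05 in 13 of them. That p was 0.0651 without control 1, 0.0677 without control 2, 0.0532 without control 4, 0.0694 without agomir 1, 0.0575 without agomir 3 and 0.102 without both control 2 and agomir 3. Leaving out control 3 was therefore bound to set the 2 groups apart (log2 fold change -0.54, edgeR adjusted p = 0.524). Over the alternatives the adjusted p ran from 0.524 to 0.999.

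Cpt2, which acts on the matrix side, had 37.8, 31.1, 43.6 and 47.4 CPM in controls 1 to 4 and 41.3, 52.1, 25.7 and 49.6 CPM in agomir libraries 1 to 4. Agomir 3 was the lowest of the 8 libraries and control 2 the next lowest, and the groups overlapped widely. The log2 fold change was 0.078 (SE 0.23, edgeR adjusted p = 0.965). For Cpt2 the deposited FPKM did not follow the counts: control 2, which was low in CPM, had 20.9 FPKM, above the other controls at 19.3 to 20.6 FPKM. The gene length implied by dividing counts by FPKM and library total was 1.69 kb in control 2 and 1.98 kb in control 1, and 2.16 to 2.37 kb in the other libraries. It varied 1.40-fold for Cpt2 and at most 1.03-fold for the other 9 genes. On log2(FPKM + 1) the Cpt2 fold change was -0.24 (SE 0.25), a value that also lacks TMM scaling and comes from another test. On counts the sign turned too, to -0.0035 without TMM scaling, -0.023 without control 2 and -0.036 without agomir 2.

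The 3 acyl-CoA dehydrogenases take medium (Acadm), long (Acadl) and very long (Acadvl) chains, and for each of them the group means differed by less than the spread between pools. Acadm had 227, 249, 199.2 and 199.4 CPM in controls 1 to 4 and 187, 206, 331 and 216 CPM in agomir libraries 1 to 4 (log2 fold change 0.10, SE 0.20, edgeR adjusted p = 0.948). Agomir 3 stood above every other library, and without it the fold change was -0.10. Acadl had 92.8, 129.7, 80.02 and 63.6 CPM in controls 1 to 4 and 81.6, 71.4, 117 and 65.5 CPM in agomir libraries 1 to 4. Its log2 fold change was -0.13 (SE 0.25, edgeR adjusted p = 0.949) and 0.094 without control 2.

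Acadvl, whose product works at the inner membrane on the longest chains, had 22.6, 42.6, 23.6 and 20.6 CPM in controls 1 to 4 and 20.6, 20.9, 40.2 and 17.3 CPM in agomir libraries 1 to 4. A single library stood apart in each group, control 2 and agomir 3, at close to the same level, and the remaining 6 libraries lay between 17.3 and 23.6 CPM. The log2 fold change was -0.15 (SE 0.31, edgeR adjusted p = 0.951). It was 0.15 without control 2, -0.48 without agomir 3 and -0.18 (SE 0.18) without both.

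The remaining steps of a round are carried out by the trifunctional protein, in which Hadha encodes the alpha subunit (hydratase and dehydrogenase) and Hadhb the beta subunit (thiolase). Hadha had 59.3, 85.6, 34.3 and 53.3 CPM in controls 1 to 4 and 76.2, 62.7, 83.0 and 43.1 CPM in agomir libraries 1 to 4 (log2 fold change 0.19, SE 0.28, edgeR adjusted p = 0.925). Hadhb had 537, 264, 601 and 644 CPM in controls 1 to 4 and 542, 451, 516 and 686 CPM in agomir libraries 1 to 4 (log2 fold change 0.10, SE 0.26, edgeR adjusted p = 0.958). Control 2, the highest library for Hadha, was the lowest for Hadhb, and agomir 4, the highest for Hadhb, was the second lowest for Hadha. Without control 2 the Hadhb fold change was -0.11, and without agomir 4 it was -0.016.

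Per length, Hadhb exceeded Hadha in every library although their proteins form one complex. The ratio of Hadhb to Hadha FPKM was 18.0, 6.15, 34.7 and 24.0 in controls 1 to 4 and 14.1, 14.3, 12.3 and 31.8 in agomir libraries 1 to 4. Its means, 20.7 ± 11.9 and 18.1 ± 9.14 (SD, n = 4), differed by less than the spread between pools. Hadhb also has a pseudogene in the RefSeq annotation, Hadhb-ps, a symbol that was not among the deposited genes. Whether reads of the pseudogene were counted for Hadhb was not tested, so the level of Hadhb is uncertain to that extent.

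**Figure D2:**
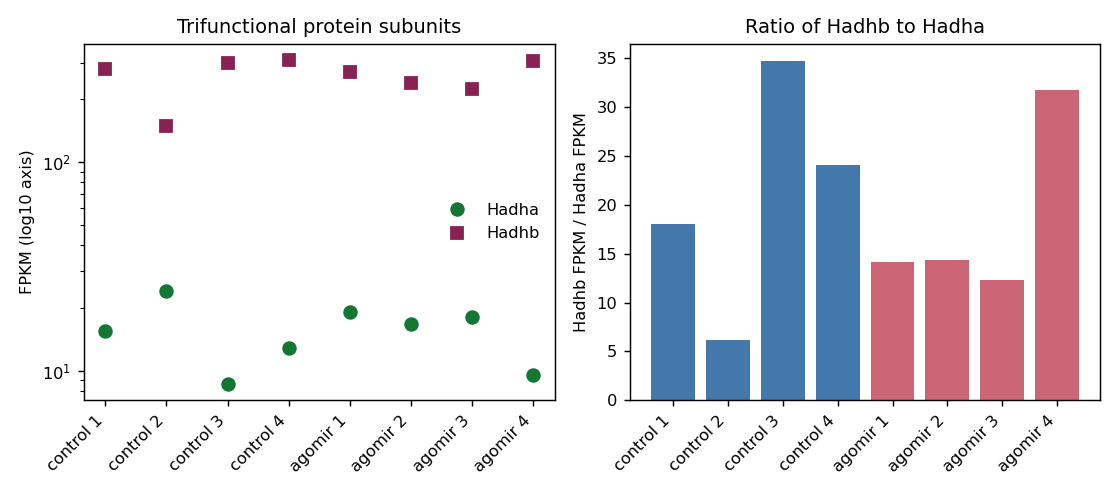
Left, deposited FPKM of Hadha (circles) and Hadhb (squares) in the 8 libraries on a log10 axis. Right, the ratio of Hadhb to Hadha FPKM in control (blue) and agomir (red) libraries, from 6.15 in control 2 to 34.7 in control 3.

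The 2 genes lie head to head on mouse chromosome 5, with annotated starts 273 bases apart, Hadha on the minus and Hadhb on the plus strand (GRCm38.p6, RefSeq). The 300-base window around the start of Hadhb, 250 bases before it and 50 from it on, shares 228 bases with the same window of Hadha. It is shown because both subunit genes are read outward from it while their transcript levels differed as given above (chr5:30155003-30155302, plus strand). Capitals mark GGGCGG or its reverse complement, the GC box bound by Sp1-type factors.
Hadhb promoter: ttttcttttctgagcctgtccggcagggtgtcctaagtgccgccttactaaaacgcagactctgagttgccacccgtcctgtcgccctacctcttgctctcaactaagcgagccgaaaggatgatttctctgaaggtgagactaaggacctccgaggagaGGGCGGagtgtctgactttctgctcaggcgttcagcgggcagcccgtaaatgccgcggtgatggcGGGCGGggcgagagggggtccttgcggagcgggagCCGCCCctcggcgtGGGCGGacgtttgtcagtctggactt
This window held 4 GC boxes and that of Hadha held 1, counted on both strands. The 1 box of Hadha lies in the shared bases and is also among the 4. The others cross or lie beyond the edge of the Hadha window, so the difference in counts follows from where the windows end. Of the 10 genes, 8 had a GC box in their window, as did 35.7% of all 32851 promoter windows of the reference. Those windows were not limited to the genes tested here, so the 2 shares do not show an enrichment. The PPAR response element, searched on both strands as the half-site AGGTCA repeated with 1 free base between, was in 0 of the 10 windows and in 0.0396% of all windows. The looser form with the half-site AGGNCA was in 0 of 10 and in 0.381%. The absence of these letters from a window says nothing about elements elsewhere.

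On the lipid droplet, Plin2 is a widely expressed coat protein, and Plin3 is a coat protein that moves between the cytosol and small droplets. Plin2 had 197, 232, 144 and 164 CPM in controls 1 to 4 and 158, 168, 252 and 188 CPM in agomir libraries 1 to 4. The means of 184 ± 38.5 and 192 ± 42.0 CPM (SD, n = 4) gave a log2 fold change of 0.057 (SE 0.20, edgeR adjusted p = 0.969), the smallest change of the 10 genes. Plus or minus 2 SE this spans -0.35 to 0.47, and values within it are not excluded.

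Plin3 had 59.6, 88.2, 36.6 and 57.5 CPM in controls 1 to 4 and 55.5, 46.4, 125 and 67.2 CPM in agomir libraries 1 to 4. Agomir 3 was the highest library and control 2 the next, and the lowest was control 3. The log2 fold change of 0.28 (SE 0.32, edgeR adjusted p = 0.899) was the largest positive value of the 10, and it was -0.099 without agomir 3. Plin3 also held the only 7-base seed form among the 10 genes.

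Pnpla2, the triglyceride lipase also called Atgl, had 15.5, 17.6, 23.4 and 3.77 CPM in controls 1 to 4 and 11.7, 15.9, 11.2 and 7.41 CPM in agomir libraries 1 to 4. It varied 6.19-fold between its highest and lowest library, the widest span of the 10 genes, and both of those libraries were controls. Control 4 rested on 76 counts and control 3 on 502 counts. The log2 fold change was -0.38 (SE 0.43, edgeR adjusted p = 0.896), and without control 4 it was -0.70 (SE 0.29, unadjusted p = 0.0315, edgeR adjusted p = 0.746, in a range of 0.746 to 0.999 over the alternatives). Without control 3 it was -0.078, and under limma-voom with quality weights it turned to 0.15.

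**Figure D3:**
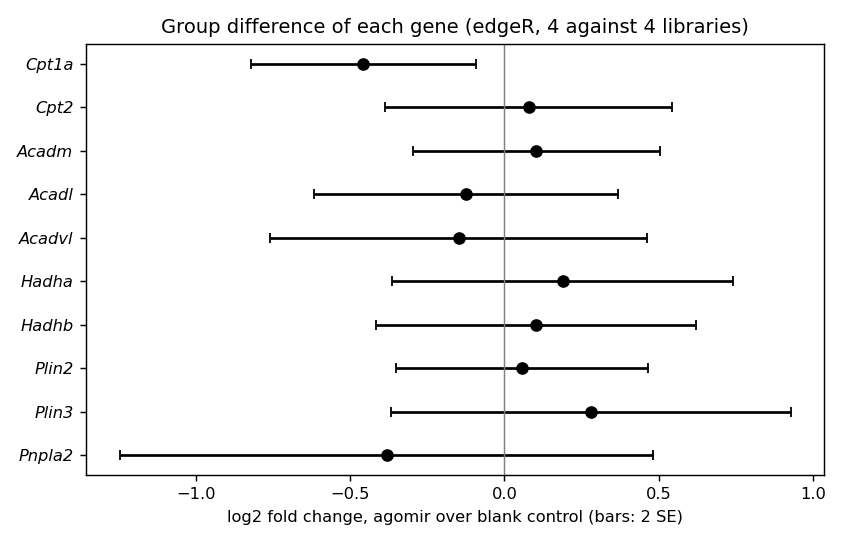
Log2 fold change of each gene, agomir over blank control (horizontal axis), from edgeR with 4 libraries per group; bars are 2 SE on either side. The bars cross 0 for every gene except Cpt1a, at -0.46, whose adjusted p was 0.736.

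Several of the 10 genes were high in the same libraries of both groups. Control 2 and agomir 3, which belong to different groups, were the 2 highest libraries for 6 of the 10 genes: Acadm, Acadl, Acadvl, Hadha, Plin2 and Plin3. They were the 2 lowest for 1 gene, Cpt2. Over all 12366 genes tested these 2 libraries were the highest pair for 11.4% and the lowest pair for 8.37%, and for 14.2% and 8.98% of genes averaging 5 CPM or more. The pattern was noticed in these libraries and is given as a description with no test. The median deviation of the 10 genes from their own means (log2 CPM) was 0.47 in control 2 and 0.45 in agomir 3, and between -0.16 and 0.046 in the other 6 libraries. These were also the 2 libraries with the highest sum of Krt8 and Krt18, 3186 CPM in control 2 and 6446 CPM in agomir 3, while the other 5 trophectoderm markers were not high in control 2, as given above. The part of this in the levels was not tested. Without both libraries the median log2 fold change of the 10 genes was -0.059, with 0 genes at an unadjusted p under 0.05.

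**Figure D4:**
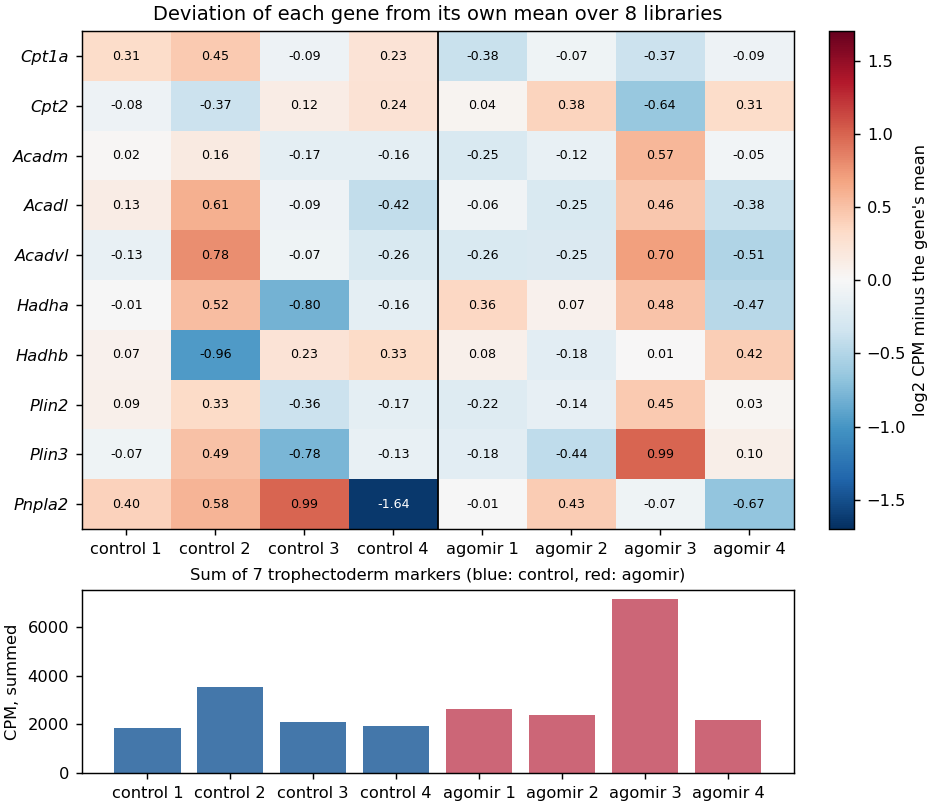
Top, log2 CPM of each gene minus its mean over the 8 libraries, as colour and printed value, with the groups divided by a line. Bottom, the sum of the 7 trophectoderm markers in CPM. Control 2 and agomir 3 are the reddest columns for Acadm, Acadl, Acadvl, Hadha, Plin2 and Plin3, the bluest for Cpt2, and the tallest bars, at 3530 and 7140 CPM, of which Krt8 and Krt18 made up 90.3% in each.

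Likeness between genes was measured as the mean absolute difference of log2 CPM over the 8 libraries, each gene centred on its own mean. Among the 10 genes the most alike were Acadm and Plin2, at 0.085, and then Acadl and Acadvl, at 0.15. The least alike were Plin3 and Pnpla2, at 0.83. Among 8696 other genes averaging 5 CPM or more, those close to Cpt1a included Lrrc8b at 0.066 and Atxn3 at 0.079, beside a median of 0.34 over all of them. The closest to Plin2 were Anp32b at 0.051, Tdg at 0.054 and Ngdn at 0.061, beside a median of 0.32.

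The wider machinery of lipid oxidation, storage and synthesis was followed in 10 lists, which hold 97 genes beside the 10 described so far. Of these, 84 were high enough to be tested, 39 of them above and 45 below a log2 fold change of 0, and 0 passed an FDR of 0.05. At an unadjusted p under 0.05 there were 1 higher and 5 lower genes, where the background is 2.64% higher and 3.74% lower, and 4 genes had groups wholly apart, all lower, where 2.47% of all genes were apart and lower and 1.42% apart and higher. Both lower counts include Pparg, described below, which passed the filter on low counts through its controls alone. The median log2 fold change of the 84 genes was -0.033.

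Around the mitochondrial genes, the carnitine carrier genes gave no called change. Slc22a5, which brings carnitine into the cell, had 174 ± 74.2 against 116 ± 23.4 CPM (SD, n = 4; log2 fold change -0.58, SE 0.30), and Slc25a20, which exchanges acylcarnitine across the inner membrane, had 25.5 ± 7.40 against 23.05 ± 2.93 CPM. Hadh, the dehydrogenase for shorter chains, averaged 389 ± 67.4 CPM in controls and 487 ± 36.0 CPM in agomir pools (log2 fold change 0.32, SE 0.17). The flavoprotein gene Etfa, which takes electrons from the acyl-CoA dehydrogenases, had 500.1 CPM in agomir 3 and 340.0 CPM in control 2. Its other libraries had 269 to 312 CPM. The same 2 libraries were the highest pair for several of the genes described above. Beside the genes described above, 3 of 6 tested genes of the later beta-oxidation steps had a fold change above 0, as did 4 of 6 of the acyl-CoA dehydrogenase and flavoprotein list.

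Among genes of lipid supply, desaturation and storage, 5 stood at an unadjusted p under 0.05. Cidea, a protein of droplet contact sites, had 4.34, 9.29, 10.7 and 6.36 CPM in controls 1 to 4 and 4.22, 3.96, 4.24 and 4.31 CPM in agomir libraries 1 to 4, with all agomir values below all controls by a narrow margin (log2 fold change -0.88, SE 0.30, edgeR adjusted p = 0.678). Fads1, the delta-5 desaturase of polyunsaturated fatty acids, had 4.62 ± 0.458 against 2.28 ± 0.935 CPM, also with groups wholly apart (log2 fold change -1.01, SE 0.35, edgeR adjusted p = 0.678). Scd2, which makes monounsaturated fatty acids, had 93.03 ± 19.6 against 69.5 ± 3.87 CPM, and the fatty acid binding protein gene Fabp5 had 509 ± 161 against 339.6 ± 69.1 CPM. Acsl5, an acyl-CoA synthetase, was the only one of the 5 higher, at 9.19 ± 3.29 against 16.3 ± 8.52 CPM, of which agomir 3 had 28.9 CPM.

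Among regulators of these pathways, Pparg and Sirt3 had the smallest p-values and Pparg rested on few counts. Ppara, the receptor best known for inducing fatty acid oxidation in liver, was among 3 of 15 regulators too low to be tested, with Ppargc1a and Nr1h3. Pparg, the receptor that drives lipid storage in fat cells, had 11, 25, 37 and 13 counts in controls 1 to 4 and 6, 4, 0 and 6 counts in agomir libraries 1 to 4. Its groups did not overlap, at 1.095 ± 0.468 against 0.196 ± 0.140 CPM (SD, n = 4), with a log2 fold change of -2.42 (SE 0.71, unadjusted p = 0.00505, edgeR adjusted p = 0.656). Only controls reached the filter's minimum count of 10, so Pparg was tested through the group where it was high. Its p-value and lack of overlap are therefore given as a description only. Of the 12 regulators tested, 10 had a fold change below 0 (9 with DESeq2 size factors), where 49.4% of all genes did. The list median was -0.17 beside 0.0048 over all genes. The count and the median include Pparg and are likewise given as a description only. The mitochondrial deacetylase gene Sirt3 averaged 7.70 ± 0.834 CPM in controls and 5.21 ± 1.504 CPM in agomir pools, again without overlap (log2 fold change -0.56, SE 0.27, edgeR adjusted p = 0.793).

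**Figure D5:**
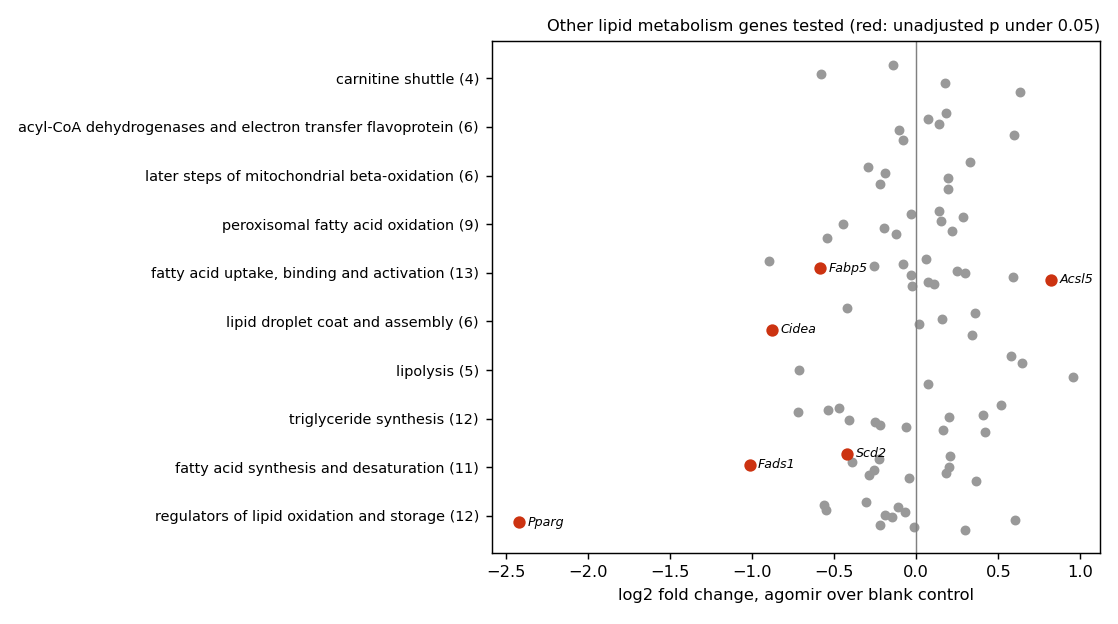
Log2 fold change, agomir over blank control, of the 84 other lipid metabolism genes tested, grouped by list with the number of genes in parentheses. Red points have an unadjusted p under 0.05: Pparg, Fads1, Cidea, Fabp5 and Scd2 to the left of 0 and Acsl5 to the right.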

How the data were processed

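RNA of 8 pools of 5 blastocysts was extracted with TRIzol, selected for poly(A) and sequenced in paired ends, in 1 labelled batch, per the labels' protocols. Software listed by the submitters' processing notes comprises HISAT2 2.1.0, StringTie 1.3.1, RSEM, DESeq2 1.36.0, fastp 0.18.0, MultiQC and FastQC, with build GRCm39. What each did, the gene annotation and any use of strand in counting is not given in the sources used here. Values in the count columns, as deposited, were read to be expected counts, since 1212 of 176104 values were not whole, and were rounded before fitting. The deposited FPKM values, scaled by the authors to length and library total, served for levels between genes and for an alternative test.

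Genes were filtered with filterByExpr (minimum count 10, minimum total 15) and fitted with the robust quasi-likelihood F test of edgeR 4.0.16 after TMM scaling (R 4.3.3), with no covariate. The SE is the size of the log2 fold change divided by the square root of F. Alternatives used DESeq2 1.42.0 and limma 3.58.1. The procedure was also run on simulated counts, and the outcome of that run is not reported here. The labels give neither parents nor fertilisation sessions of the pools, so a p-value covers only variation from pool to pool, which may be technical.

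The 10 genes, the lists and the alternatives were chosen with earlier results of these data known. The rule for named genes took all 10 genes, up to 4 others per list by smallest p, and the 3 most alike to Cpt1a and to Plin2. A gene that this rule names is not reported here. Sequences and their positions are from GRCm38, and no coordinates were combined with the table's build.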

Additional observations from a re-analysis of the deposited data

Results flagged for a closer look

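For Acadvl, a single library lay far from the others of its group in both groups. Control 2 had 42.6 CPM, where the other controls had 20.6 to 23.6 CPM. Agomir 3 had 40.2 CPM, where the other agomir libraries had 17.3 to 20.9 CPM. The gap between such a library and its nearest neighbour was 0.863 and 0.845 of the group's whole range, past the critical value of 0.829 for 4 samples. Both groups were examined for each of the 10 genes, 20 cases in all with 2 past that value, and chance alone passes about 1 in 20.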

How the results depend on the processing

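Of the 10 genes, 0 passed an FDR of 0.05 under any of the 19 alternatives. Over all genes the count was 0 in the main comparison, 35 with DESeq2, 0 to 1 when a library was left out and 0 in the others. The count of the 10 genes at an unadjusted p under 0.05 was 1, and 0 to 1 when a library was left out; without both control 2 and agomir 3 it was 0. The count with groups apart was 0, and 0 to 1 with a library left out. The 1 was Cpt1a without control 3, the only control among its agomir values. The median log2 fold change of 0.068 turned to -0.061 without TMM scaling, to -0.14 on log2(FPKM + 1) and -0.14 on log2(FPKM + 0.1), to -0.059 without both libraries, and lay between -0.10 and 0.12 with single libraries left out. Without TMM scaling Cpt2 was at -0.0035, Acadm at -0.036 and Plin2 at -0.086, and with upper-quartile scaling Plin2 was at -0.019. On FPKM with pseudocounts of 1 and 0.1, Cpt2 was at -0.24 and -0.25, Acadm at -0.035 and -0.035, and Plin2 at -0.052 and -0.053. Under limma-voom Hadhb was at -0.0062 and Pnpla2 at 0.15. Without both libraries Acadm was at -0.036 and Hadhb at -0.083. With single libraries left out the values ran from -0.036 to 0.26 for Cpt2, -0.10 to 0.20 for Acadm, -0.33 to 0.094 for Acadl, -0.48 to 0.15 for Acadvl, -0.11 to 0.24 for Hadhb, -0.098 to 0.19 for Plin2 and -0.099 to 0.52 for Plin3. Cpt1a and Hadha kept their signs throughout, at -0.57 to -0.33 and 0.0079 to 0.44. The median of all genes stood at -0.11 without TMM scaling and -0.066 with upper-quartile scaling. On log2(FPKM + 1) and log2(FPKM + 0.1) it stood at -0.072 and -0.099. The cause of the turns in sign was not tested. With the replicate number as a block, Cpt1a was at -0.45 (SE 0.18, edgeR adjusted p = 0.861) and 0 genes of the table passed. Deviations of same-numbered libraries correlated at -0.061, -0.060, -0.14 and 0.11. With 4 libraries a group and no labelled sessions, these values cannot show whether the pools were paired. Of the 12 regulators, 10 were lower under TMM, 9 with DESeq2 size factors, 10 without TMM scaling and 8 to 10 with a library left out. Pparg, which passed the filter on low counts through its controls alone, is among these 12. SEs of 0.18 to 0.43 limit what 4 pools a group can show.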
